A study of Mus musculus with 16 samples.

Results

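The genes described here are 33 genes of hepatic fatty acid oxidation, ketone body formation and the response to the nuclear receptor PPAR-alpha, taken by their symbols from a table of 35502 genes counted in mouse liver. They are the receptor gene Ppara, 3 genes of the carnitine shuttle and 11 of mitochondrial beta-oxidation. Another 3 encode the electron transfer flavoprotein and its dehydrogenase. The others are 5 of peroxisomal oxidation, 2 microsomal fatty acid hydroxylases, Bdh1 for ketone bodies, 4 acyl-CoA thioesterases and 3 further targets of the receptor. All 33 were in the table, and all 33 passed the filter on low counts, which kept 13379 genes. No member changed with the knockout of oestrogen receptor alpha or with stage at an adjusted p under 0.05. Between stages in control livers 32 of the 33 log2 fold changes were negative, against 46.9% of those of all tested genes. These signs are not independent of each other, since the members varied together by library. Of all libraries, immature control 4 had the highest level for 19 members and immature control 1 for 7.

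Fatty acids reach the mitochondrial matrix as carnitine esters, are shortened there by repeated rounds of dehydrogenation, hydration, dehydrogenation and thiolytic cleavage, and pass electrons to the respiratory chain through the electron transfer flavoprotein. Very long and dicarboxylic acids are shortened in peroxisomes by a parallel set of enzymes, and cytochromes of the Cyp4a family in the endoplasmic reticulum hydroxylate the omega end of fatty acids. PPAR-alpha, with its partner RXR, is activated by fatty acids in the fasted liver and raises transcription of many of these genes. In rodents Cyp4a10, Cyp4a14, Acot1, Ehhadh, Acaa1b, Pdk4 and Vnn1 are known as strongly inducible targets.

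RNA came from the livers of 16 individual mice, with 1 library per mouse and 4 mice in each of 4 groups. The groups were mature LERKO, mature control, immature LERKO and immature control, where mature and immature refer to sexual maturity. LERKO mice lack oestrogen receptor alpha, encoded by Esr1, in the liver and are recorded as carrying Cre. Controls are floxed mice recorded as without Cre. The sources used here do not give the promoter that drives Cre, whether the stage is that of the knockout or of tissue collection, or the age, sex and feeding state of the mice. Mature and immature are used here as the labels' words only. Total counts were 18123974 to 23213905 per library. Levels are in CPM, counts relative to library size, scaled with TMM factors of 0.852 to 1.07. A value after ± is the SE from the fit for a log2 fold change, and the SD over 4 libraries for a level.

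Esr1 was lower in both LERKO groups. It had 13.9 to 19.1 CPM in mature LERKO livers, against 66.7 to 110.1 CPM in mature controls (edgeR, log2 fold change -2.33 ± 0.19 SE, adjusted p = 1.57e-05). In immature LERKO livers it had 10.7 to 15.95 CPM, against 55.3 to 89.0 CPM in immature controls (log2 fold change -2.50 ± 0.19 SE, adjusted p = 6.55e-06). The sources used here do not say which exon was deleted. The 8 hepatocyte markers were detected in every group, and their summed level was 108151 to 153108 CPM in 15 libraries and 85863 CPM in library 4 of mature LERKO. That library also had 19031 CPM of Saa1 and 19911 CPM of Saa2, the acute phase serum amyloid genes, against at most 113 and 60.1 CPM in the other 15, both chosen after their values were seen. Its sums were the lowest of all for stellate cell markers (141 CPM) and endothelial markers (91.3 CPM). They were the highest of all for Kupffer cell markers (467 CPM) and cholangiocyte markers (56.8 CPM). Its sum of adipocyte markers was also the lowest (90.3 CPM), but Car3 makes up nearly all of that list's level. Over 16 libraries Car3 had a mean of 1644 CPM, against 2.99 CPM for Cfd, 0.80 CPM for Adipoq and 0.65 CPM for Plin1. The adipocyte sum therefore does not measure adipocyte RNA. Summed skeletal muscle markers were 820, 356, 0.67 and 58.6 CPM in mature controls and 159 CPM in library 4 of immature LERKO, and at most 2.28 CPM in the other 11 libraries. Their part in the results below was not tested beyond the fits without these libraries. In whole tissue, fewer cells of a type and less RNA per cell cannot be told apart.

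The mature knockout comparison sets LERKO against control livers among the mice labelled mature. Of the 33 members, 0 were called by edgeR's quasi-likelihood test at an adjusted p under 0.05, against 0.00747% of all 13379 tested genes, which is Esr1 itself. At an unadjusted p under 0.05 there were also 0 members, against 7.3% of all genes, and for 0 members did the groups not overlap, against 3.9% of all genes. DESeq2 also called 0 members, against 0.206% of its genes, and limma-voom 0, against 0.00747%. The members' log2 fold changes ran from -0.40 to 0.49 with a median of -0.04, where the median of all tested genes was -0.01, and 19 of 33 were negative. For 81.8% of members the 95% interval lay within a 2-fold change in either direction, against 81.2% of all genes. Without library 4 of mature LERKO 6 of the 33 were negative and the median was 0.13. The median was also positive without library 3 of mature LERKO (0.03), mature control 2 (0.05) or mature control 4 (0.03). With limma-voom sample quality weights it was positive too, with 11 of 33 negative. The same held without library 4 of mature LERKO and of immature LERKO, with 7 of 33 negative. Beside this, stellate cell markers had summed levels of 141 to 527 CPM in mature LERKO livers, against 541 to 686 CPM in mature controls, with 9 of 9 fold changes negative. Endothelial markers had 91.3 to 217 CPM in mature LERKO livers, against 193 to 274 CPM in mature controls, with 8 of 8 negative. Their part in the members' values was not tested.

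In immature livers the knockout comparison likewise called 0 members with edgeR, against 0.00747% of all genes. The counts were 0 members against 2.76% of genes at an unadjusted p under 0.05, and 0 members against 1.63% of genes whose groups do not overlap. DESeq2 called 0 members, against 0.0974% of its genes, and limma-voom 0, against 0.00747%. At an unadjusted p under 0.05 there were 9 members without immature control 2 (3.13% of genes), 4 without immature control 3 (4.98%), 2 with the compared groups fitted alone (2.66%) and 1 with DESeq2 or without library 4 of mature LERKO or library 1 or 3 of immature LERKO. Here 32 of 33 log2 fold changes were negative, with a median of -0.27 and a range of -1.22 to 0.15, while the median of all tested genes was 0.01. The exception was Pdk4. Without library 4 of immature LERKO 28 were negative. The 95% interval lay within a 2-fold change for 75.8% of members and 83.4% of all genes.

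Averaged over both stages, the knockout effect called 0 members, against 0.00747% of genes, and had 0 members at an unadjusted p under 0.05, against 3.69% of genes. The median of the members was -0.14 and 32 of 33 were negative, but 15 of 33 were negative without library 4 of mature LERKO and of immature LERKO. The count at an unadjusted p under 0.05 was 2 without library 1 or 2 of mature LERKO and 1 without immature control 2. The difference of the knockout effects, mature minus immature, called 0 members and 0% of all genes, and had 0 members at an unadjusted p under 0.05, against 6.35% of genes. Its median over members was 0.24, with 3 of 33 negative, and 1 to 8 negative in the other fits, the 8 without library 1 of mature LERKO and with library size alone. At an unadjusted p under 0.05 there were 6 members without library 4 of mature LERKO (8.06% of genes), 2 without immature control 2 or without library 4 of both LERKO groups, and 1 without library 1 of immature LERKO or immature control 3. DESeq2 called 0 members in both, against 0.0225% of genes for the average and 0.165% for the difference, and limma-voom called 0 as well.

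The stage comparison in controls sets mice labelled mature against mice labelled immature, both without Cre. Since it is not known whether the label is the stage at knockout or at collection, it is also not known what separates these control groups. The comparison called 0 members and 0% of all genes with edgeR and with limma-voom, and 0 members with DESeq2, which called 0.555% of its genes. At an unadjusted p under 0.05 there were 18 members, all 18 with negative fold changes, against 9.84% of all genes. For 7 members every mature control library lay below every immature control library, namely Acadvl, Acads, Acaa2, Hadha, Etfa, Cyp4a10 and Bdh1, against 8.86% of all genes without overlap in either direction. Over all tested genes the median log2 fold change was 0.02 and 46.9% were negative. The members' median was -0.44, with 32 of 33 negative. The smallest adjusted p was 0.264, for Vnn1. With DESeq2 or with RLE size factors 33 of 33 were negative. The count of 18 was 7 without immature control 1 (6.72% of genes) and 5 without immature control 4 (7.12%). It was 9 without mature control 1 (6.4%) and 11 without mature control 3 (7.62%). Without the 3 libraries with most muscle transcripts it was 5 (4.08%). In other fits it was higher, 26 with the compared groups fitted alone (16.3%) and 24 without immature control 2 (10.7%). With limma-voom sample quality weights it was 25 (17.3%), and without library 4 of mature LERKO and of immature LERKO 25 (14%). In each of these fits 31 or 32 members were negative.

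Beside this, markers of other cell types stood at unlike levels in the control groups. Stellate cell markers had summed levels of 541 to 686 CPM in mature controls and 353 to 461 CPM in immature controls, with 9 of 9 fold changes positive. Endothelial markers had 193.459 to 274 CPM in mature controls and 127 to 192.598 CPM in immature controls, with 8 of 8 positive, and Kupffer cell markers 297 to 408 CPM in mature controls and 159 to 318 CPM in immature controls, with 8 of 8 positive. Hepatocyte markers had 108151 to 135713 CPM in mature controls and 122389 to 143983 CPM in immature controls, with 6 of 8 negative and a median of -0.17. The stellate and endothelial sums of these groups do not overlap, and the hepatocyte sums do. All markers of these 4 lists were detected in both groups, and their part in the members' values was not tested.

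In LERKO livers the stage comparison called 0 members and 0% of all genes with edgeR and with limma-voom, and 0 members with DESeq2, which called 0.045% of its genes. Only Fabp1 had an unadjusted p under 0.05, against 4.93% of all genes, and for 0 members did the groups not overlap, against 1.52% of genes. That count of 1 was 0 without library 4 of mature LERKO or library 2 or 3 of immature LERKO, while leaving out library 1 of mature LERKO gave 2 and leaving out library 4 of immature LERKO gave 3. The median was -0.20, with 29 of 33 negative. Averaged over genotypes, the stage effect called 0 members and 0% of genes with edgeR, and had 20 members with an unadjusted p under 0.05, all negative, against 7.92% of genes. The 20 were 10 without immature control 4 (5.67% of genes) and 13 without library 3 of immature LERKO (6.51%). With library size alone in place of TMM they were 11 (7.29%). They were 24 without library 4 of immature LERKO (11.6%) and 24 without immature control 2 (8.83%). Without library 4 of mature LERKO and of immature LERKO they were also 24 (14.9%). The averages use the libraries of the single comparisons again, and the immature controls enter both the immature knockout and the control stage comparison, so these values are not independent of each other.

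**Figure D1:**
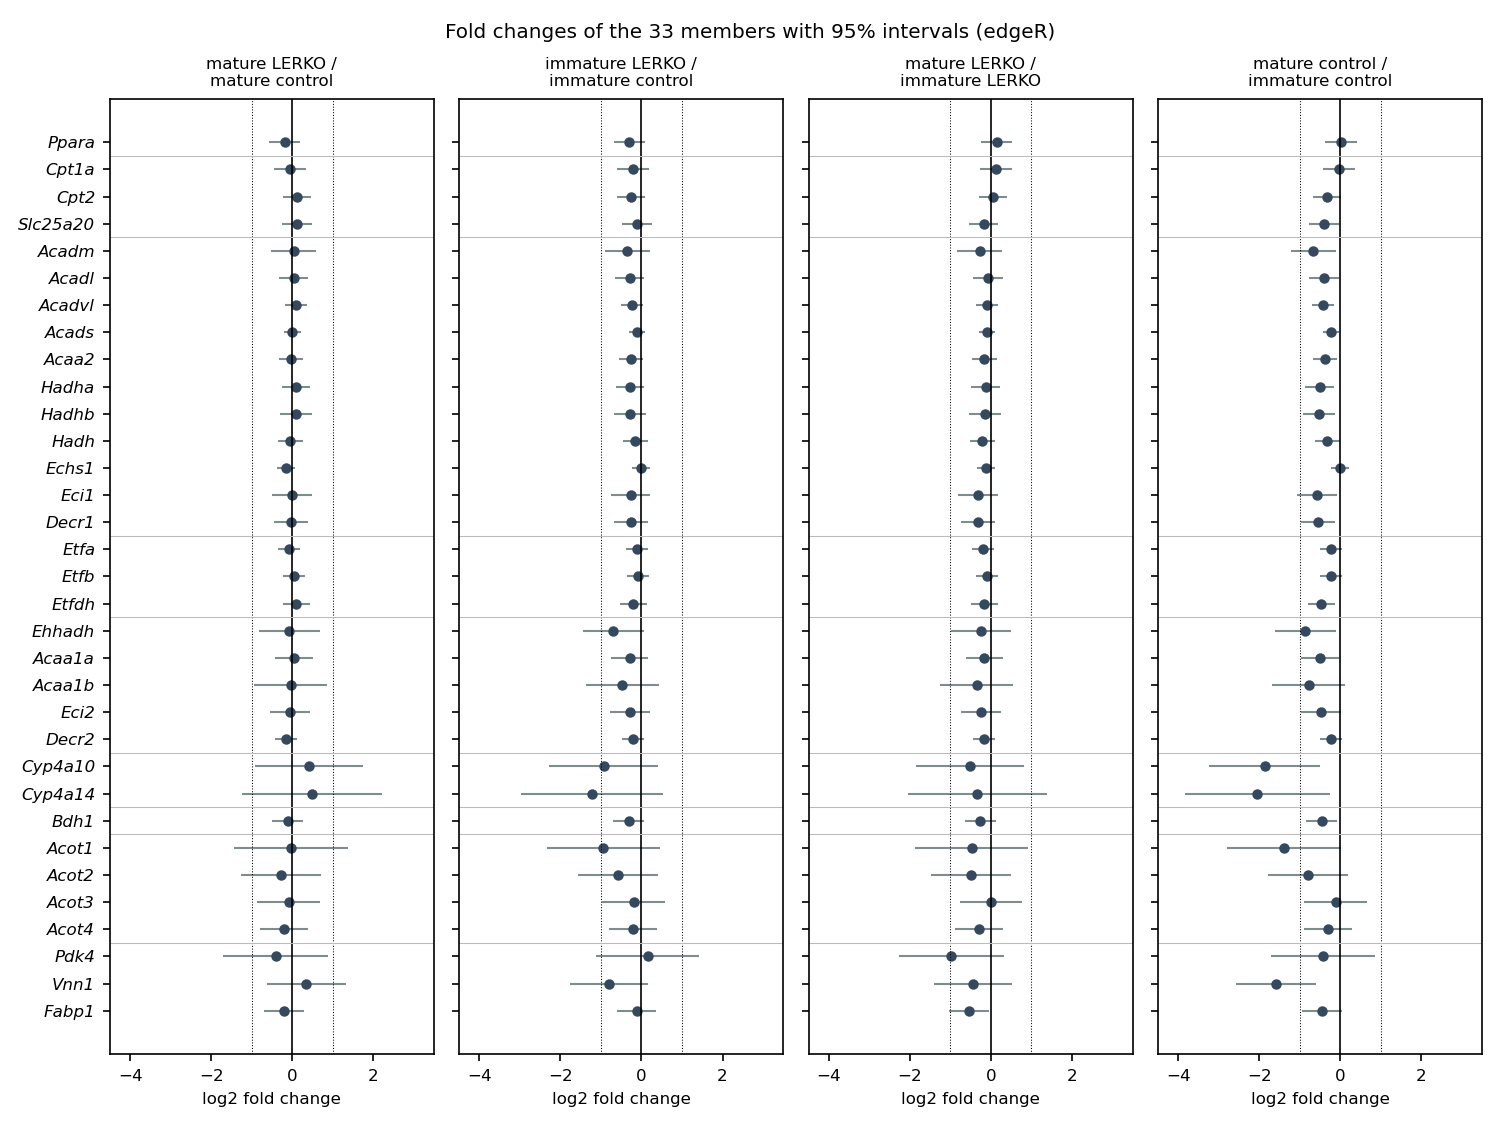
Log2 fold change of each member (points, down the page by class) with its 95% interval (lines) in 4 comparisons from 1 edgeR fit over 16 libraries; dotted lines mark 2-fold changes. In the comparison of control livers 32 of 33 points lie left of 0, with a median of -0.44, and in mature LERKO against mature control they lie on both sides, with a median of -0.04.

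Ppara itself (chromosome 15, 85734983 to 85802819, forward strand, GENCODE vM21 on GRCm38, as for all positions here) encodes the receptor. It had 210.4, 198, 112 and 121 CPM in mature LERKO livers and 182, 159.8, 209 and 175 CPM in mature controls. It had 168, 144, 136 and 134 CPM in immature LERKO livers and 204, 184, 175 and 153 CPM in immature controls. Libraries 3 and 4 of mature LERKO were the lowest of the 16, libraries 1 and 2 were among the highest, and in both stages the LERKO and control groups overlap. The log2 fold change was -0.18 ± 0.18 (SE) in mature livers and -0.30 ± 0.18 in immature livers, with adjusted p of 0.849 and 0.9995. Between stages it was 0.02 ± 0.18 in controls, with a 95% interval of -0.36 to 0.40. Ppara was thus the 1 member that was not negative there, and its sign turned in several alternative fits.

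In the carnitine shuttle, Cpt1a (chromosome 19, 3322334 to 3385733, forward strand) encodes the outer membrane transferase that controls entry of fatty acids into mitochondria. Its levels were 703, 749, 391 and 593 CPM in mature LERKO livers and 644, 509, 707 and 667 CPM in mature controls. In immature LERKO livers they were 628, 618, 445 and 545 CPM, and in immature controls 796, 635, 549 and 609 CPM. Library 3 of mature LERKO was the lowest and immature control 1 the highest, and all groups overlap. The control stage fold change of Cpt1a was -0.04 ± 0.19 on the log2 scale, the smallest in size of the shuttle.

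Cpt2 (chromosome 4, 107903981 to 107923610, reverse strand) encodes the inner membrane transferase that returns acyl groups to coenzyme A. It had 134, 144, 102 and 103 CPM in mature LERKO livers and 108, 109, 116 and 114 CPM in mature controls. It had 159, 104, 111 and 95.5 CPM in immature LERKO livers and 156, 112, 131 and 162 CPM in immature controls. The mature controls were the tightest group, and libraries 1 and 2 of mature LERKO lay above them while 3 and 4 lay below. The difference of the knockout effects was 0.37 ± 0.23 (adjusted p = 0.798). The third gene of the shuttle, Slc25a20, the carnitine-acylcarnitine carrier, had a control stage fold change of -0.41 ± 0.17 (adjusted p = 0.447).

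Among the 11 mitochondrial beta-oxidation genes, 11 were negative between stages in controls, where the median was -0.42 with a range of -0.67 to -0.0047 on the log2 scale. Of them, 10 had an unadjusted p under 0.05, against 9.84% of all genes. That count depends on single libraries. The whole list of members had 7 without immature control 1 and 5 without immature control 4, so the class had fewer than 10 there. In LERKO livers the median between stages was -0.14. The knockout medians were 0.01 in mature and -0.27 in immature livers. In all 4 of these comparisons 0 of the 11 passed the adjusted threshold with edgeR.

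Acadvl (chromosome 11, 70010183 to 70015411, reverse strand) encodes very long chain acyl-CoA dehydrogenase, which starts the cycle on long fatty acids. It had 395, 439, 393 and 331 CPM in mature LERKO livers, against 335, 383, 358 and 385 CPM in mature controls. It had 447, 424, 439 and 361 CPM in immature LERKO livers, against 535, 407, 425 and 586 CPM in immature controls. The 4 mature controls lay below the 4 immature controls, of which libraries 1 and 4 were high and 2 and 3 lower, and the 2 LERKO groups overlapped each other and their controls. The control stage comparison gave a log2 fold change -0.42 ± 0.13 (SE), adjusted p = 0.289. Mature control Acadvl was thus 74.8% of the immature control level, with a 95% interval of 61.8 to 90.5%. The knockout fold changes were 0.09 ± 0.13 in mature and -0.23 ± 0.13 in immature livers, and their difference had an adjusted p of 0.784. Acadvl overlaps Dvl2 on the other strand, and the strand setting of the counting is not given.

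Hadha (chromosome 5, 30118304 to 30155162, reverse strand) encodes the alpha subunit of the trifunctional protein, which carries out the later steps on long chains. Its 4 levels were 378, 482, 364 and 295 CPM in mature LERKO livers and 334, 362, 339 and 389.7 CPM in mature controls. In immature LERKO livers they were 457, 449.5, 402 and 354 CPM and in immature controls 621, 408, 400.0 and 593 CPM. Again immature controls 1 and 4 stood above the other libraries of their group, and mature and immature controls did not overlap. The fold change between control stages was -0.51 ± 0.17 (adjusted p = 0.335). Its neighbour Hadhb, read in the opposite direction and encoding the beta subunit, had -0.52 ± 0.19.

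Acaa2, which encodes the mitochondrial 3-ketoacyl-CoA thiolase, had the highest CPM of the 11. Its levels were 735, 833, 721 and 519 CPM in mature LERKO livers and 662, 739, 694 and 783 CPM in mature controls. They were 795, 862, 814 and 666 CPM in immature LERKO livers and 980.1, 841, 840.3 and 1077 CPM in immature controls. Library 4 of mature LERKO was the lowest and immature control 4 the highest, and every mature control lay below every immature control. The log2 fold change was -0.38 ± 0.14 between control stages (adjusted p = 0.406) and -0.25 ± 0.14 for the knockout in immature livers (adjusted p = 0.9995).

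Decr1 (chromosome 4, 15917240 to 15945507, reverse strand) encodes the dienoyl-CoA reductase needed for polyunsaturated fatty acids. It had 192, 199, 165 and 119 CPM in mature LERKO livers and 159, 184, 159.5 and 189.5 CPM in mature controls. Immature LERKO livers had 223, 215, 249 and 155 CPM and immature controls 294, 183, 209.7 and 329.7 CPM. Mature controls 2 and 4 lay above immature control 2, so the control groups overlap there. The fold change between control stages was -0.55 ± 0.20 (adjusted p = 0.382), and averaged over genotypes -0.44 ± 0.14 (adjusted p = 0.449).

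Echs1 (chromosome 7, 140105710 to 140116476, reverse strand) encodes short chain enoyl-CoA hydratase. It had 268, 216, 230.5 and 224 CPM in mature LERKO livers and 271, 278, 245 and 240.3 CPM in mature controls. It had 253, 234, 298 and 241 CPM in immature LERKO livers and 248, 241, 285 and 263 CPM in immature controls. The 4 groups overlap throughout, and immature controls 1 and 4 do not stand out. The knockout fold change in mature livers, the first of the members in that comparison by p, was -0.14 ± 0.11 with a 95% interval of -0.36 to 0.08 (edgeR, adjusted p = 0.783). Between control stages it was -0.0047 ± 0.11, which makes Echs1 the 1 mitochondrial gene of the 11 without an unadjusted p under 0.05 there. The exons of Echs1 overlap Paox on the other strand, and those of Hadha, Etfdh, Acaa1a, Acaa1b, Eci2, Bdh1, Acot3 and Acot4 likewise overlap a gene on the other strand.

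Etfa (chromosome 9, 55454508 to 55512243, reverse strand) encodes the alpha subunit of the electron transfer flavoprotein, which collects electrons from the acyl-CoA dehydrogenases. It had 321, 305, 339 and 234 CPM in mature LERKO livers and 311, 337, 299 and 319.7 CPM in mature controls. It had 317, 330.3, 414 and 311 CPM in immature LERKO livers and 369.7, 346, 355 and 413 CPM in immature controls. Mature controls lay below immature controls without overlap, while the LERKO groups overlap. The fold changes were -0.23 ± 0.12 between control stages (adjusted p = 0.596) and -0.20 ± 0.12 between LERKO stages (adjusted p = 0.955). The class median between control stages was -0.23, the smallest in size of any class apart from Ppara. Etfb counts are uncertain, since 65.2% of the 100-base windows of its transcript also occur in Gm45233, which overlaps it on the same strand.

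**Figure D2:**
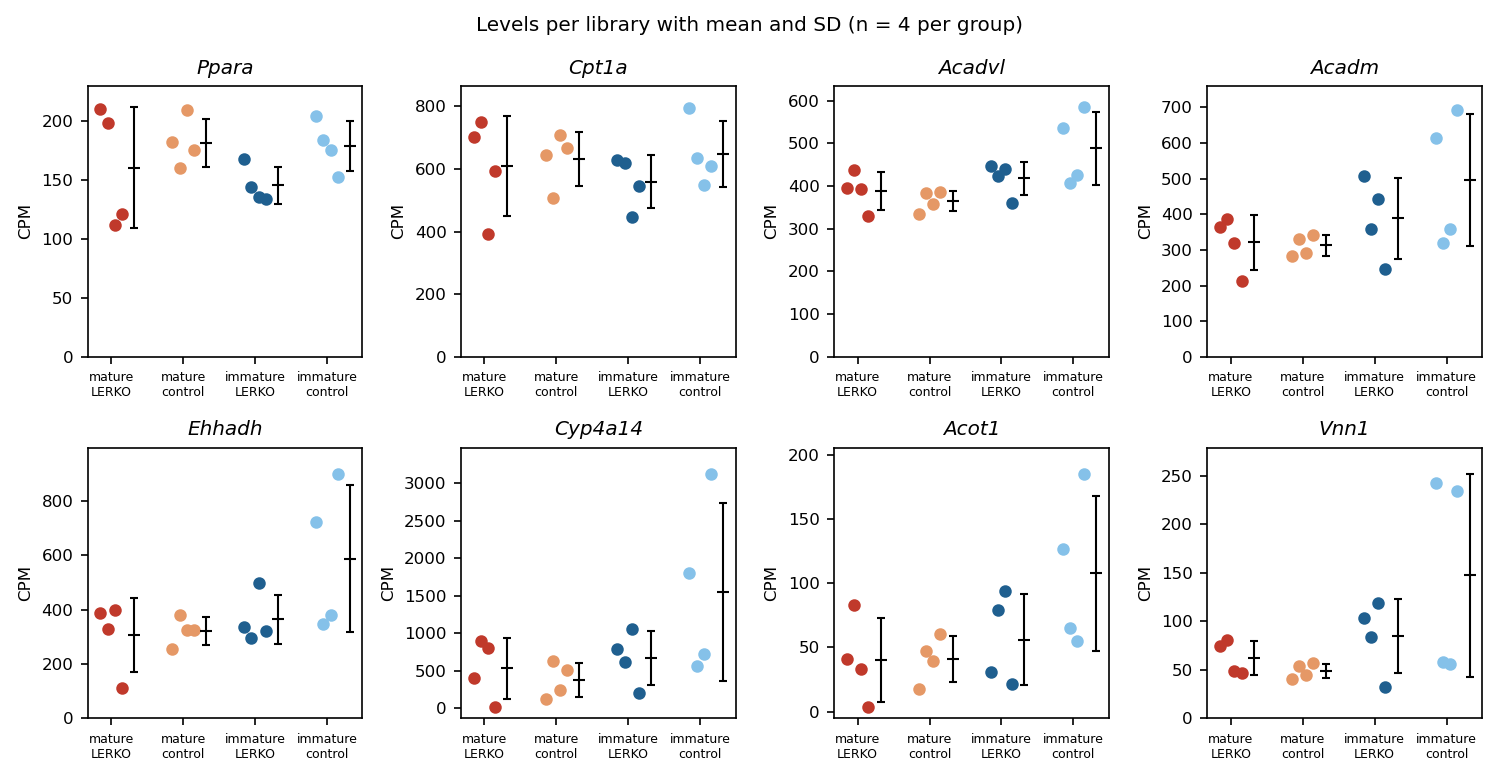
Levels in CPM of 8 members (panels) in each library (points) by group, with the mean and SD over 4 libraries (bars). The immature controls of Acadvl, Acadm, Ehhadh, Cyp4a14, Acot1 and Vnn1 hold a high pair, libraries 1 and 4, and a lower pair, while Ppara and Cpt1a show no such pairs.

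The 5 peroxisomal genes had a median of -0.51 between control stages, with 5 of 5 negative. Of these, 2 had an unadjusted p under 0.05, against 9.84% of all genes. For the knockout their medians were -0.06 in mature and -0.30 in immature livers. In all 4 comparisons 0 of the 5 passed the adjusted threshold with edgeR.

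Ehhadh (chromosome 16, 21761287 to 21787807, reverse strand) encodes the peroxisomal bifunctional enzyme, a hydratase and dehydrogenase. It had 388, 327, 399.8 and 110.2 CPM in mature LERKO livers, against 254, 381, 325 and 326 CPM in mature controls. It had 337, 297, 498 and 322 CPM in immature LERKO livers, against 723, 346, 382 and 899.7 CPM in immature controls. Of the 16 livers, library 4 of mature LERKO had the least, immature controls 1 and 4 had the most, and the remaining 13 lay between 253.9 and 498 CPM. In the immature knockout comparison Ehhadh came first of the members by p, with a log2 fold change of -0.69 ± 0.35 (edgeR, adjusted p = 0.9995). Its 95% interval ran from -1.44 to 0.06. Between control stages the fold change was -0.87 ± 0.35 (adjusted p = 0.432).

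Acaa1b (chromosome 9, 119148023 to 119157093, reverse strand) encodes a peroxisomal thiolase and had the highest CPM of the class. It had 1189, 864, 981 and 198 CPM in mature LERKO livers and 578, 1114, 857 and 765 CPM in mature controls. It had 1231, 747, 1487 and 649 CPM in immature LERKO livers and 1576, 846, 1145 and 2127 CPM in immature controls. Library 4 of mature LERKO stood far below the other 15, immature control 4 was the highest, and the groups overlap in every comparison. The fold change between control stages was -0.78 ± 0.43 (adjusted p = 0.599). Its neighbour and near copy Acaa1a, which shares 22.6% of the 100-base windows of Acaa1b, had -0.51 ± 0.22, and reads from the shared stretches cannot be placed.

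Decr2 (chromosome 17, 26081208 to 26090337, reverse strand) encodes the peroxisomal dienoyl-CoA reductase. It had 257, 259, 186 and 199 CPM in mature LERKO livers and 244, 228, 260.5 and 265 CPM in mature controls. It had 254, 274, 267 and 216 CPM in immature LERKO livers and 323, 241, 294 and 307 CPM in immature controls. The mature LERKO libraries split into 1 and 2, which lay among the controls, and 3 and 4, which lay below all 4 controls. Averaged over stages, the knockout fold change was -0.18 ± 0.09 (unadjusted p = 0.0732, adjusted p = 0.9994), the smallest unadjusted p among the members there. In mature livers alone it was -0.15 ± 0.13.

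The 2 microsomal genes, Cyp4a10 and Cyp4a14, lie in the same gene cluster on chromosome 4 and encode fatty acid omega-hydroxylases. They had the members' largest fold changes between control stages, -1.87 ± 0.65 and -2.04 ± 0.84, and neither passed (adjusted p = 0.360 and 0.438). Cyp4a14 (chromosome 4, 115486200 to 115496142, reverse strand) had 401, 896, 798 and 18.5 CPM in mature LERKO livers and 127, 626, 246 and 507 CPM in mature controls. It had 787, 617, 1061 and 197 CPM in immature LERKO livers and 1803, 562, 716 and 3123 CPM in immature controls. Library 4 of mature LERKO was by far the lowest and immature controls 1 and 4 were the highest. Between the control groups only mature control 2 reached into the immature range.

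For the knockout, Cyp4a14 had a fold change of 0.49 ± 0.81 in mature livers and -1.22 ± 0.82 in immature livers (adjusted p = 0.929 and 0.9995). The 95% interval of the mature LERKO level was 42.5 to 464% of the control level, and that of the immature LERKO level 12.8 to 144%. Changes of several fold lie within both intervals, so the data do not show that the microsomal genes were alike in LERKO and control livers. The test of the difference of the effects gave 1.71 ± 1.15 (adjusted p = 0.805). In the Cyp4a10 transcript, 12.7% of 100-base windows also occur in Cyp4a32 or Cyp4a31.

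Bdh1 (chromosome 16, 31422280 to 31458901, forward strand) encodes 3-hydroxybutyrate dehydrogenase, which interconverts the main ketone bodies. It had 313, 302, 214 and 193 CPM in mature LERKO livers and 283, 285, 252 and 284 CPM in mature controls. It had 344, 294, 295 and 288 CPM in immature LERKO livers and 491, 300.2, 291 and 432 CPM in immature controls. Mature controls lay below all immature controls, but only by a small gap to libraries 2 and 3. The fold changes were -0.46 ± 0.18 between control stages (adjusted p = 0.413), -0.11 ± 0.18 for the knockout in mature livers and -0.31 ± 0.18 in immature livers.

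The 4 thioesterase genes Acot1 to Acot4, which release free fatty acids from coenzyme A, lie in a cluster on chromosome 12. Acot1 is cytosolic, Acot2 mitochondrial, and Acot3 and Acot4 peroxisomal. Their median was -0.55 between control stages, with 4 of 4 negative and 0 at an unadjusted p under 0.05, against 9.84% of genes. For the knockout their medians were -0.14 in mature and -0.39 in immature livers, with 0 of 4 called in each. Acot3 (chromosome 12, 84052144 to 84060402, forward strand), the highest in CPM, had 381, 425, 217 and 79.4 CPM in mature LERKO livers and 195, 395, 319 and 256 CPM in mature controls. It had 294, 233, 362 and 211 CPM in immature LERKO livers and 316, 257, 308 and 378 CPM in immature controls. Mature LERKO held both the highest library and the lowest, and the groups overlap. The fold change was -0.11 ± 0.37 between control stages and 0.00 ± 0.37 between LERKO stages. Acot3 shares 14.3% of its 100-base windows with other genes, most of them with the overlapping Gm49366, whose counts were 18.5 to 22% of those of Acot3, and Acot1 and Acot2 share 12.5 and 17.1% of theirs.

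Of the 3 remaining targets, Vnn1 (chromosome 10, 23894688 to 23905343, forward strand) encodes pantetheinase. It had 74.4, 80.8, 48.8 and 46.3 CPM in mature LERKO livers, against 40.8, 53.7, 44.8 and 56.8 CPM in mature controls. It had 104, 84.3, 119 and 31.9 CPM in immature LERKO livers, against 243, 58.3, 56.1 and 234 CPM in immature controls. Immature controls 1 and 4 stood at about the same high level, immature controls 2 and 3 lay within or next to the range of mature controls, and library 4 of immature LERKO was the lowest of the 16. The control stage comparison gave a log2 fold change -1.59 ± 0.46 (SE), adjusted p = 0.264. That was the smallest adjusted p of any member in any comparison, and it was 0.778 for the difference of the knockout effects (1.15 ± 0.64). The knockout fold changes were 0.35 ± 0.46 in mature and -0.80 ± 0.46 in immature livers.

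Pdk4 (chromosome 6, 5483351 to 5496309, reverse strand) encodes the kinase that inactivates pyruvate dehydrogenase and so spares glucose. It had 17.4, 5.95, 8.21 and 1.66 CPM in mature LERKO livers and 7.21, 20.3, 8.98 and 7.53 CPM in mature controls. It had 8.60, 9.17, 38.7 and 9.35 CPM in immature LERKO livers and 14.0, 8.68, 11.4 and 25.1 CPM in immature controls. 1 library of each group stood above the rest, namely mature LERKO 1, mature control 2, immature LERKO 3 and immature control 4, and library 3 of immature LERKO was the highest. The fold change between LERKO stages was -0.98 ± 0.61 (adjusted p = 0.955), with library 4 of mature LERKO the lowest.

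Fabp1 (chromosome 6, 71199827 to 71205023, forward strand) encodes liver fatty acid binding protein, which carries fatty acids in the hepatocyte cytosol. It had 4173, 3810.1, 3787 and 2390.4 CPM in mature LERKO livers and 4044, 4535, 3504 and 4248 CPM in mature controls. It had 3412, 6135, 7277 and 3640.2 CPM in immature LERKO livers and 5481, 4534, 6053 and 6163 CPM in immature controls. Immature LERKO libraries 1 and 4 lay within the mature range and 2 and 3 well above it. Between LERKO stages the fold change was -0.53 ± 0.23, at an unadjusted p of 0.0358 and an adjusted p of 0.955 (edgeR), and between control stages -0.44 ± 0.23. The knockout fold changes were -0.21 ± 0.23 in mature and -0.12 ± 0.23 in immature livers.

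PPAR-alpha and RXR are known to bind a direct repeat of AGGTCA with a single base between the copies. RefSeq promoters of GRCm38.p6, covering 250 bases before to 50 after each gene's start, were matched by symbol to 28 of the 33 members, leaving out Decr1, Cyp4a10, Cyp4a14, Acaa2 and Vnn1. This repeat, searched on both strands with any base between the copies and at most 1 mismatch, was found in 1 of the 28, Fabp1, and in 182 of all 32851 promoters (0.554%). The match in Fabp1 is AGGCCATAGGTCA on the reverse strand, -67 to -55 from the start. Single AGGTCA copies, which overlap any such repeat, were in 7 of the 28 (25%) and in 16.3% of all promoters. A match of letters is a description and not a binding site, and these windows hold no enhancers. The Fabp1 promoter is shown because it holds that match, in capitals (chr6:71199629-71199928, forward strand).
Fabp1: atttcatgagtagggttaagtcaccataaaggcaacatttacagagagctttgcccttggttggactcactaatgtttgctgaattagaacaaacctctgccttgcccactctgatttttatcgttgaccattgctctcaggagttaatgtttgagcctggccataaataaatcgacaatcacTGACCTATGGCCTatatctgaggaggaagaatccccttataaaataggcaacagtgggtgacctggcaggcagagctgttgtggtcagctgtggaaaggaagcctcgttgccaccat

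Per kilobase of exon, Fabp1 stood far above the rest at 8272 CPM per kb over 16 libraries, followed by Acaa1b (521), Acaa2 (518), Cyp4a14 (300.02) and Etfb (272 CPM per kb). Pdk4 was the lowest at 3.6 CPM per kb, below Acot2 (7.90) and Acot1 (15.7 CPM per kb). Ppara ranked number 23 of 33 at 43.4 CPM per kb. The length used joins all annotated exons of a gene, so the ranks also depend on the annotation. For Echs1 it is 8286 bases, against 4088 for its longest transcript. The order of neighbours is not firm: Acaa1b had 412 ± 218 and Acaa2 463 ± 86.7 CPM per kb in mature LERKO livers, while in immature controls Acaa1b had 726 ± 284 and Acaa2 617 ± 76.3 CPM per kb (SD, n = 4 each), so the 2 change places within their spread.

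The members differed in how far livers of the same group varied. The SD of log2 CPM within groups had a median of 0.24 over all tested genes and a 90th percentile of 0.57. It was 0.24 for the mitochondrial class, 0.17 for the electron transfer class and 0.26 for the carnitine shuttle, as medians, and 0.37 for the peroxisomal class, 0.70 for the thioesterases, 0.77 for the other targets and 1.37 for the microsomal genes. 9 members lay above the 90th percentile, namely Cyp4a14, Acot1, Cyp4a10, Pdk4, Vnn1, Acot2, Acaa1b, Acot3 and Ehhadh, and 0 of the 18 mitochondrial, carnitine, electron transfer and Ppara genes did. Over the 16 livers the highest level was 168 times the lowest for Cyp4a14, 48.8 times for Acot1, 32.6 times for Cyp4a10, 23.3 times for Pdk4 and 10.7 times for Acaa1b, but 1.38 times for Echs1 and for Acads. Cyp4a10, Acot1, Acot2 and Acads were chosen after their values were seen.

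**Figure D3:**
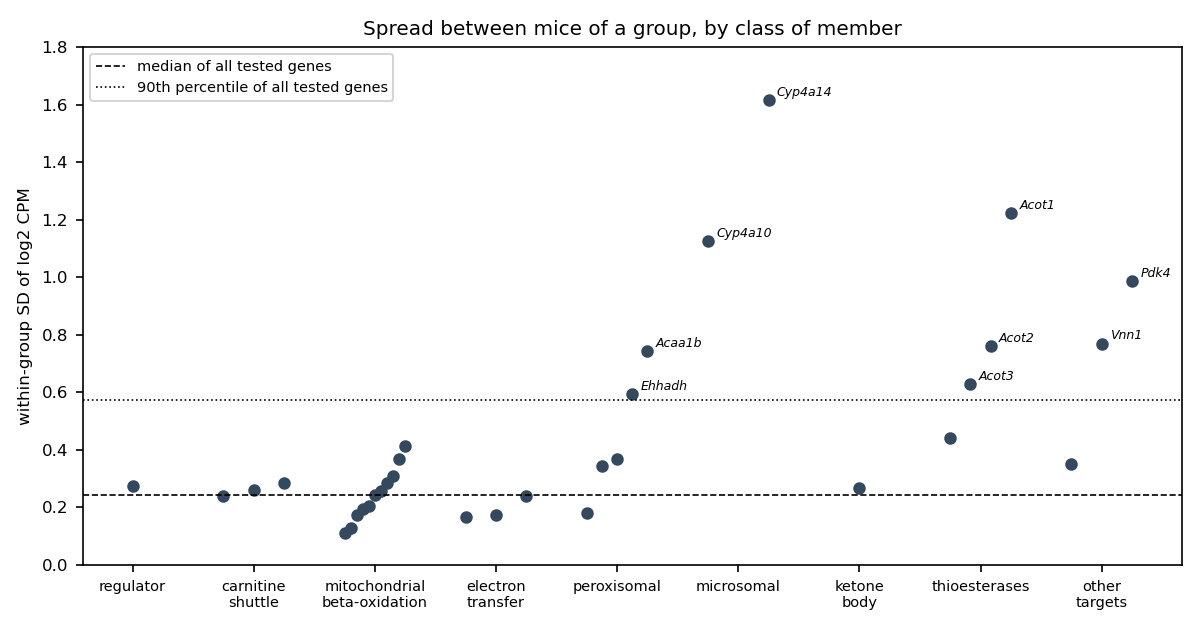
Within-group SD of log2 CPM (vertical axis) of each of the 33 members (points) by class; the dashed line is the median of all tested genes (0.24) and the dotted line their 90th percentile (0.57). The 9 named members lie above the dotted line, led by Cyp4a14, and all mitochondrial members lie below it.

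The variation ran through whole libraries. Immature control 4 had the highest level of the 16 libraries for 19 members and immature control 1 for 7, and library 3 of immature LERKO for 5. Library 4 of mature LERKO had the lowest level for 21 members, library 3 of mature LERKO for 6 and library 4 of immature LERKO for 5. The members' median deviation from their own means was 0.55 on the log2 scale in immature control 4, 0.47 in immature control 1 and -0.58 in library 4 of mature LERKO. For the microsomal pair it was 2.47, 1.66 and -3.74 in those libraries. Beside this, Scd1, a desaturase of fatty acid synthesis chosen after its values were seen, had 507, 2262, 6633 and 1430 CPM in immature controls 1 to 4. It had 4549, 1890, 4180 and 25702 CPM in immature LERKO livers and 5799, 1694, 6037 and 6344 CPM in mature LERKO livers. Mature controls had 7081, 8083, 5803 and 9497 CPM. Immature controls 1 and 4, with the highest median deviations, had the lowest Scd1 of the 16 libraries. Library 4 of immature LERKO had the highest Scd1 and a median deviation of -0.27. In mature controls 1 to 4 the median deviation was -0.29, -0.03, -0.16 and -0.06. Library 4 of mature LERKO, lowest for 21 members, had Scd1 near that of libraries 1 and 3 of its group. In library 2 of mature LERKO and of immature LERKO, where Scd1 was low, the members' median deviation was 0.10 and 0.04. Whether the members follow Scd1 was not tested.

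**Figure D4:**
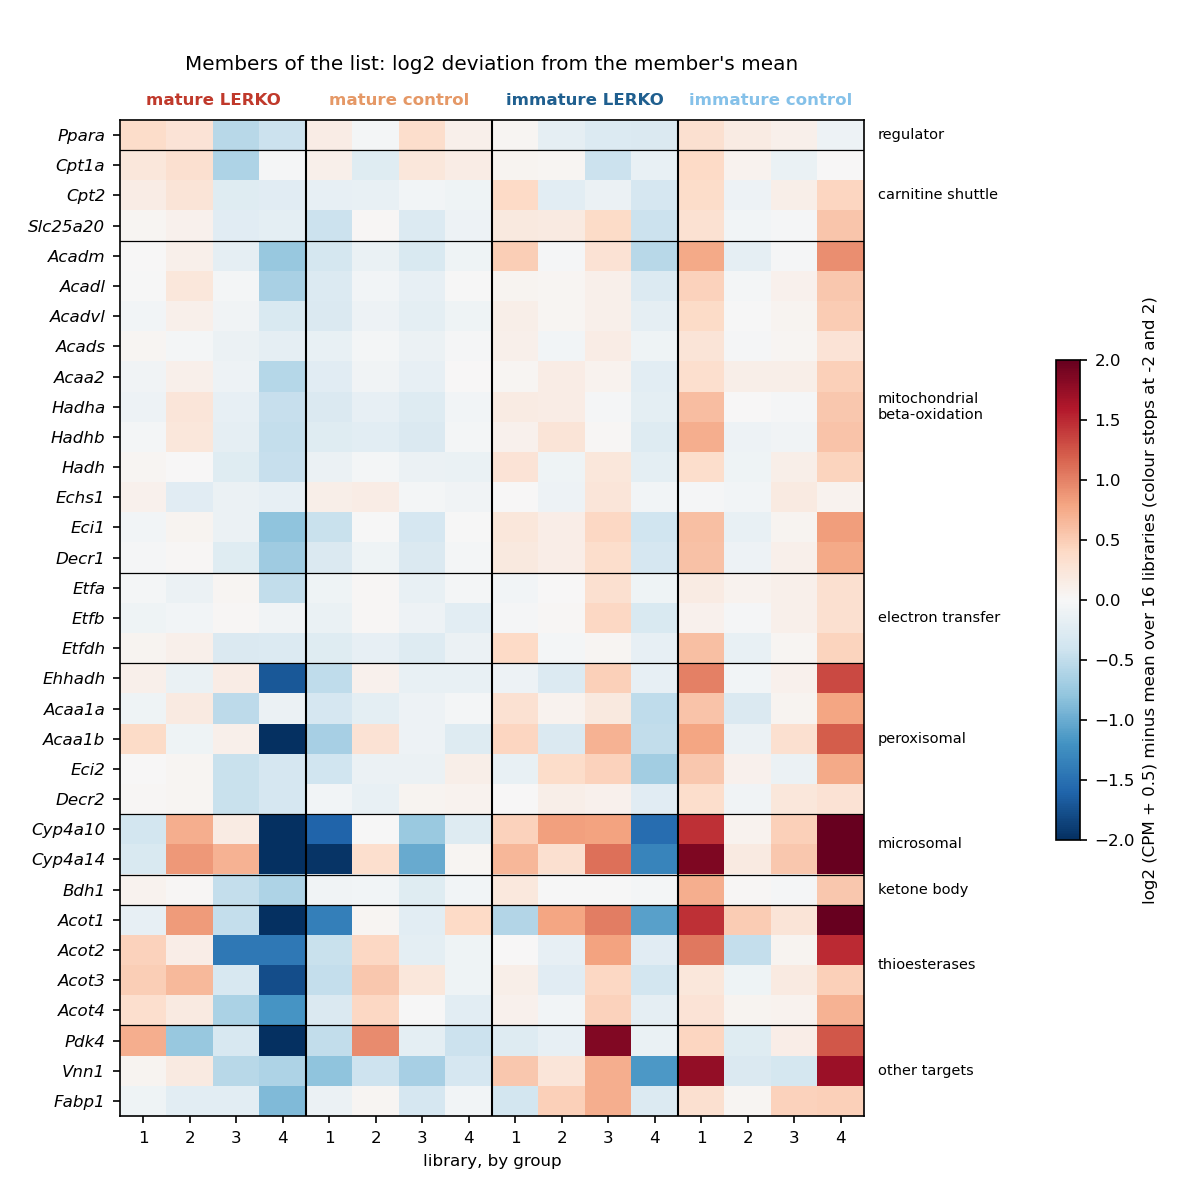
Log2 (CPM + 0.5) of each member (rows, by class) in each library (columns, by group) minus the member's mean over 16 libraries; red is above and blue below the mean, and the colour stops at -2 and 2. Columns 1 and 4 of the immature controls are red through most rows, column 4 of mature LERKO is blue, and the microsomal rows have the strongest colours.

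The relations below were picked from all pairs of members after their values were seen, so they are descriptions, and their p-values, adjusted over 6 relations only, are no test of the pattern. Over 16 livers, on log2 (CPM + 0.5), Cyp4a14 followed Cyp4a10 (Pearson's r = 0.965, Spearman's rho = 0.921), Acot1 (r = 0.934, rho = 0.771), Ehhadh (r = 0.917, rho = 0.812) and Acadm, medium chain acyl-CoA dehydrogenase (r = 0.86, rho = 0.856). The permutation p of each r was 2e-05, the smallest that 100000 permutations can give, with an adjusted p of 3e-05 over 6 relations, and the adjusted p of rho was at most 0.00096. Without library 4 of mature LERKO and immature control 4, the 2 farthest from the median of Cyp4a14, r was 0.96, 0.802, 0.746 and 0.817. With each group centred on its own mean, r was 0.957, 0.917, 0.893 and 0.806. Cyp4a10 and Cyp4a14 had no 100-base window in common.

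The receptor gene did not follow the same order. Cyp4a14 against Ppara had r = 0.224 (permutation p = 0.41, adjusted 0.41) and rho = -0.0441 (permutation p = 0.88, adjusted 0.88), and r = -0.0734 without the 2 farthest livers. Ppara followed Cpt1a instead, with r = 0.807 (permutation p = 0.00014, adjusted 0.00017) and rho = 0.868 (permutation p = 6e-05, adjusted 0.00018). Without libraries 3 and 4 of mature LERKO r was 0.802, and with groups centred 0.797. The mRNA level of a receptor does not measure its activity.

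**Figure D5:**
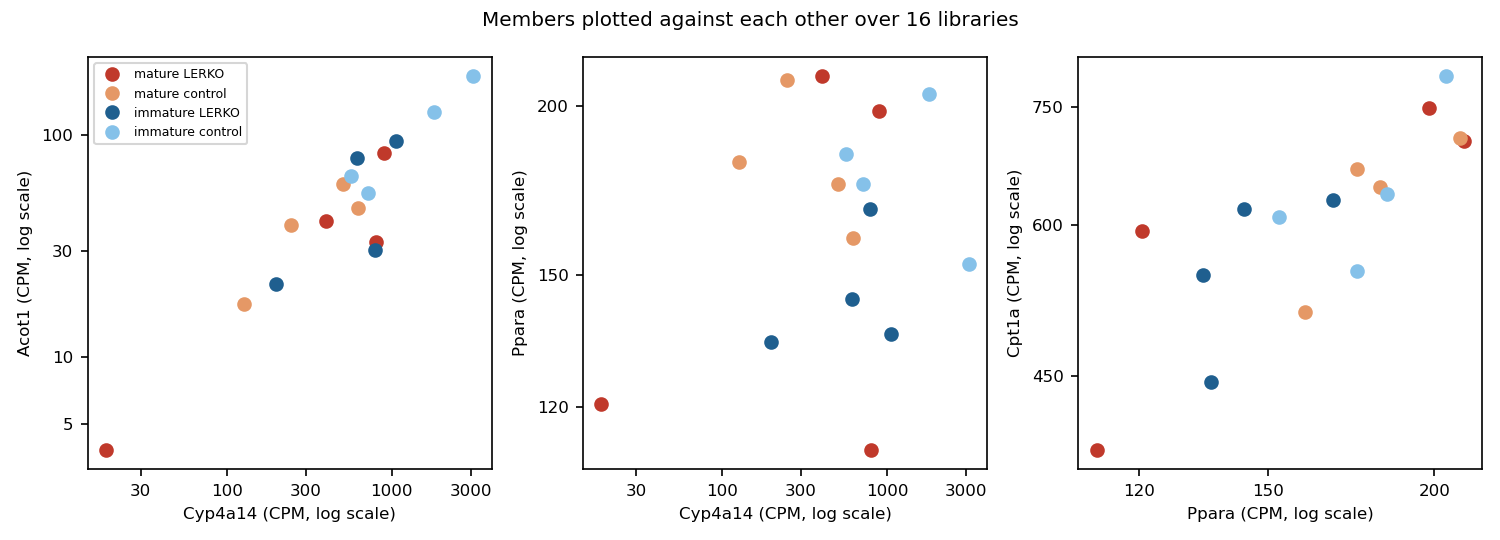
Levels in CPM, on log axes, of Acot1 against Cyp4a14, Ppara against Cyp4a14 and Cpt1a against Ppara, with 1 point per library coloured by group. Acot1 increases with Cyp4a14 (r = 0.934), Ppara shows no such order (r = 0.224) and Cpt1a increases with Ppara (r = 0.807).

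The number of CpG pairs in a member's promoter and its variation between livers were related loosely. The Spearman correlation between the number of CpG pairs in the 300-base promoter and the within-group SD was -0.561 across the 28 matched members and -0.263 across 10237 tested genes, so the same tendency is seen in all genes. These points share their libraries and are no replicates. The 9 members with 10 or fewer CpG pairs had a median SD of 0.44, against 0.26 for the 19 with over 10, and among all tested genes the medians were 0.35 and 0.21. Such promoters made up 32.1% of those of members, 1 per gene, and 58.6% of all 32851 RefSeq promoters. The larger set includes several promoters of some genes and genes that were not tested, so these shares are of unlike sets. There are plain exceptions: Pdk4, with 12 CpG pairs, had an SD of 0.99, and Ehhadh, with 14, had 0.59, while Acadvl, with 9, had 0.17. Bdh1, with an SD of 0.27, has a promoter entry with 7 CpG pairs and another with 17. The entry with 7, the first by position, was counted here. Whether Bdh1 is an exception, and its place among the 9, depends on that choice. Cyp4a14, Cyp4a10 and Vnn1, among the most variable members, have no matched promoter. Shown are 2 members that follow the tendency, Acaa1b with 4 CpG pairs and an SD of 0.74 (chr9:119157044-119157343, reverse strand) and Echs1 with 20 and 0.13 (chr7:140116372-140116671, reverse strand), and 2 that go against it, Pdk4 (chr6:5496229-5496528, reverse strand) and Acadvl (chr11:70015379-70015678, reverse strand). Capitals mark CpG pairs.
Acaa1b: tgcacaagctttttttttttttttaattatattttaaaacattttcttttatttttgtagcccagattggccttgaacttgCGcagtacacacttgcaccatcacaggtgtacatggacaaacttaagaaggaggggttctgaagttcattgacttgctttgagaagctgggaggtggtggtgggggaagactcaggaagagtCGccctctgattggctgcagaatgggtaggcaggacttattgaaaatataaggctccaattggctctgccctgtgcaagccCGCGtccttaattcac
Echs1: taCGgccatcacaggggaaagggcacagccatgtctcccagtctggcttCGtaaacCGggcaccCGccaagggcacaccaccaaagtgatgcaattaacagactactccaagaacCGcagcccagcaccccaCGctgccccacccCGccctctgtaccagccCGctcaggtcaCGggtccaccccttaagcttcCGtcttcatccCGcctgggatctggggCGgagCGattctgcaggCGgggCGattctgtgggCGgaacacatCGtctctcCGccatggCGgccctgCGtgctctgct
Pdk4: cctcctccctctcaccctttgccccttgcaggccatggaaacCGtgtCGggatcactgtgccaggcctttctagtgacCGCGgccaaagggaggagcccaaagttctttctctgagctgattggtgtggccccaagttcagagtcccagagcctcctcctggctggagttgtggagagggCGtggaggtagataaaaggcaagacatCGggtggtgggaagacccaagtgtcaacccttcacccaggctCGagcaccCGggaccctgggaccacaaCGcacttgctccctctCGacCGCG
Acadvl: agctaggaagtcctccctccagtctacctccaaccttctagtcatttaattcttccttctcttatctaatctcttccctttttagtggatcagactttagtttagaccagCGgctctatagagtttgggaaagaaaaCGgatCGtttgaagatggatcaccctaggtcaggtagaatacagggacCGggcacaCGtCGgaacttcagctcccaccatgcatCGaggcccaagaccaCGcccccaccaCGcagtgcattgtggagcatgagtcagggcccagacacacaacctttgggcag

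Beyond the members, 64 other genes of fatty acid uptake, activation, oxidation, ketone formation and PPAR-alpha response were listed, and 62 of them passed the filter. Cyp4a12a, with 2 counts in all libraries together, and Cyp4a12b, with 0, did not; both are known in mice as male-biased. Of the 62, 0 passed in any comparison with edgeR over 16 libraries. In controls, mature against immature, 43 of 62 were negative and the median was -0.18, against 0.02 over all tested genes. At an unadjusted p under 0.05, 14 were negative and 0 positive, against 9.84% of all genes in either direction. The list of 16 other peroxisomal genes had a median of -0.36 there and the 8 other mitochondrial genes 0.04.

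The smallest unadjusted p in that comparison belonged to Cyp4a31, a further hydroxylase of the Cyp4a cluster (-2.21 ± 0.51, adjusted p = 0.235), and Scp2, which encodes a peroxisomal thiolase and a sterol carrier (-0.36 ± 0.11, adjusted p = 0.278). DESeq2 called both, 2 of 62 against 0.555% of all genes, and called Scp2 in the average over genotypes, 1 of 62 against 0.217%. EdgeR called Cyp4a31 in both comparisons without library 4 of mature LERKO and of immature LERKO, against 0.246 and 0.365% of all genes. For the knockout in mature livers they belonged to Hacl1, a lyase of peroxisomal alpha-oxidation (0.68 ± 0.20, adjusted p = 0.481), and Cpt1b, the muscle form of the transferase (-1.34 ± 0.41, adjusted p = 0.481). Cpt1b was highest in mature controls 1 and 2, the libraries with most muscle transcripts, whose part in this value was not tested. In immature livers they were Acot9, a mitochondrial thioesterase (0.47 ± 0.18), and Cyp4f13 (-0.24 ± 0.11), both with an adjusted p of 0.9995. Between LERKO stages they were Ppargc1a, a coactivator of the receptor (-0.56 ± 0.19), and Med1, a Mediator subunit (0.18 ± 0.08), both with an adjusted p of 0.955.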

How the data were processed

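Liver mRNA of 16 mice was sequenced as stranded, paired-end libraries, per the labels' protocols. STAR, R 4.05, limma and the build mm10 are named in the submitters' processing notes, without their roles. The authors deposited 1 table of counts per gene and library. The deposited values of 2 genes include 10 that are not whole, so these columns are best called estimated counts, and they were rounded. The sources used here give no counting program, annotation or strand setting.

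Genes were filtered with edgeR 4.0.16 (filterByExpr, minimum count 10, minimum total 15), scaled by TMM and tested by quasi-likelihood (glmQLFit, glmQLFTest) in 1 model of 4 group means. P-values were adjusted by Benjamini-Hochberg over all 13379 tested genes, with a threshold of 0.05. The common biological coefficient of variation was 21.2%. The code was tested on simulated counts. Alternatives used DESeq2 1.42.0, limma-voom (limma 3.58.1), other scalings, filters and thresholds, and left out libraries.

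The members and lists were chosen with earlier results of these data known. Named members are Ppara, the 3 with the smallest p in each comparison and the highest of each class in CPM; of other pathway genes, the 2 with the smallest p in each comparison.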

Additional observations from a re-analysis of the deposited data

Results flagged for a closer look

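Of 132 groups of 4 libraries, 1 for each member and group, 6 held a library whose gap to its nearest neighbour exceeded Dixon's 95% critical value as a share of the group's range. Chance flags about 1 group in 20. In library 3 of immature LERKO, Acot2 had 26.9 CPM against 12.9 to 15.2 CPM in the other 3, and Pdk4 had 38.7 CPM against 8.6 to 9.35 CPM. In library 2 of mature controls, Pdk4 had 20.3 CPM against 7.21 to 8.98 CPM, and Hadh, the mitochondrial hydroxyacyl-CoA dehydrogenase, had 455 CPM against 427 to 431 CPM. Bdh1 had 252 CPM in library 3 of mature controls against 283 to 285 CPM in the others, and 344 CPM in library 1 of immature LERKO against 288 to 295 CPM. For 0 members did the knockout move all libraries 1 way in mature and the opposite way in immature livers. That count could not differ from 0, because 0 members had groups without overlap in either knockout comparison.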

How the results depend on the processing

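In each of 186 counts under other settings, over 7 comparisons, 0 members were called. Of 179 medians of the members, 0 moved by 0.25 (log2) or more, the SD between libraries of a group. This limit is near or above the size of the knockout medians and of their difference. The count of 0 therefore does not show that those medians were stable. The median's sign changed for the mature knockout (-0.10 to 0.13) and the averaged knockout (-0.21 to 0.0057). It kept its sign for the immature knockout (-0.35 to -0.15), the stages in controls (-0.55 to -0.32) and in LERKO (-0.30 to -0.09), the averaged stage (-0.39 to -0.26) and the difference (0.10 to 0.38). Single members were recomputed for 26 fold changes, those of Ppara and of the 3 members with the smallest p in each comparison. Of their 665 values 0 passed and 9 changed sign, all for Ppara. Other members did change sign, as the counts of negative members beside each comparison show (6 in place of 19 in the mature knockout). Between control stages Ppara was -0.0025 with DESeq2 and -0.0025 with RLE factors, and -0.057 to 0.087 with 1 library left out. With 1 library left out it was -0.019 to 0.27 between LERKO stages, -0.00029 to 0.14 for the averaged stage and -0.038 to 0.27 for the difference, which was -0.0018 without the 3 libraries with most muscle transcripts. With library size in place of TMM, 8 in place of 18 members (11.2% of genes) had an unadjusted p under 0.05 between control stages. Intervals of the microsomal genes span several fold, which limits what can be said of them. No paired analysis was possible because the labels give the groups no shared replicate numbers.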
